A study of Homo sapiens with 6 samples.

Results

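The genes described here are 41 genes of the hypoxia response and of glycolysis, out of the 28395 genes in the count table. They were chosen by name and not by their values: the subunits and regulators of the hypoxia-inducible factors (HIF), a set of HIF targets, and the transporters and enzymes that carry glucose to lactate. All 41 were found in the table by gene symbol. The RNA came from H146 cells (NCI-H146, an established small cell lung cancer line, genotype WT), collected on day 2, 48 hours after transfection. In 3 libraries the cells had received an siRNA against *KIFC1*, which encodes a mitotic kinesin (siKIFC1), and in 3 they had received a scrambled siRNA (control siRNA). The libraries of each group are numbered as biological replicates 1 to 3. The comparison is limited to 1 cell line, 1 time point and 1 of the study's siRNAs against *KIFC1*. An effect of lower KIFC1 and any other effect of that siRNA therefore cannot be told apart. Every difference is also relative to the control siRNA. A rise with siKIFC1 and a fall caused by the control siRNA cannot be told apart either.

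HIF is a transcription factor made of an oxygen-sensitive alpha subunit (*HIF1A* or *EPAS1*) and a constant beta subunit (*ARNT*). When oxygen is present, prolyl hydroxylases of the EGLN family mark the alpha subunit and VHL directs its destruction, so HIF activity is set largely at the level of protein. Stable HIF binds short hypoxia response elements and raises genes for angiogenesis, mitophagy and glycolysis, and many tumor cells also run glycolysis at a high rate with oxygen present.

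The libraries held from 15392374 to 17754458 counts. The targeted gene, *KIFC1* (gene ID 3833, chromosome 6, 33391461 to 33409896, GRCh38), was counted 14, 4 and 14 times with control siRNA, while the siKIFC1 libraries held 1, 1 and 0 counts of it. Its counted level with control siRNA was 0.618 ± 0.320 CPM (SD, n = 3), in counts scaled by library size (CPM). In public mRNA data, the paper found *KIFC1* higher in small cell lung cancer lines than in lines of any other cancer type. Its immunoblots showed more KIFC1 protein in small cell lung cancer cells than in normal bronchial epithelial cells. Whether the few counts here hold all reads of *KIFC1* was not tested, so they may understate its level in H146 cells. The mean level of *KIFC1* with control siRNA was 3.26-fold above a floor of 3 counts per siKIFC1 library (0.19 CPM). This figure leaves out the spread of the controls, and control replicate 2, with 4 counts, lay close to that floor. Its adjusted p was 0.0739 in edgeR's quasi-likelihood test and 0.00459 with the replicate number as a block. All 8 neuroendocrine markers of this cell type passed the filter on low counts, and their summed level was 2960 to 3370 CPM with control siRNA and 3090 to 3630 CPM with siKIFC1. Summed markers of other cell types were low in both groups, in CPM with control siRNA and then siKIFC1: 3.38 to 5.12 and 4.21 to 5.86 for leukocytes, 9.27 to 14.6 and 10.4 to 12.2 for fibroblasts, 3.92 to 4.76 and 5.2 to 5.68 for endothelial cells. The same sums were 6 to 8.33 and 6.12 to 8.56 CPM for tuft-like markers and 0.877 to 1.44 and 1.09 to 1.58 CPM for YAP markers, and *POU2F3* had 0 to 3 and *YAP1* 0 to 7 counts per library. Mitochondrial genes took 8.34% to 13.1% of the counts.

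The cores of hypoxia response elements were located first in the promoters. The letters searched were ACGTG and GCGTG on both strands of RefSeq promoter windows (GRCh38.p14, 250 bases before to 50 bases after a gene's start). A CACGTG holds ACGTG on both strands and so counts 2 times. Windows were found for 36 of the 41 genes, 65 windows in all. ACGTG was present in 24 of them (36.9%), against 24.9% of the windows of all genes tested and 21.4% of all windows. Either core was present in 66.2% of the windows of these genes, 59.9% of those of all genes tested and 48.4% of all windows. The first *LDHA* window held 5 matches to ACGTG and 1 to GCGTG, the *BNIP3* window 2 and 4, and the second *HK2* window 4 and 2. The *LDHB* window held no ACGTG and 1 GCGTG. Windows of other genes also held several cores: *ALDOC* had 3 ACGTG and 2 GCGTG, *ANKRD37* 3 and 0, and *GAPDH* 2 and 0. The sites shown are examples from *LDHA*, *BNIP3* and *HK2*, which were picked for their values. *PGK1*, a long-known HIF target, and *LDHB* are set beside them. Capitals mark the core, and CACGT or CACGC is a core read from the opposite strand.
LDHA, chr11:18394368-18394394, plus strand, 184 bases before the start: actcccagcgcACGTGgagcagtctgc
LDHA, chr11:18394466-18394492, plus strand, 86 bases before the start: gcccgactcacACGTGggttcccgcac
LDHA, chr11:18394479-18394505, plus strand, 73 bases before the start: gtgggttcccgCACGTccgccggcccc
BNIP3, chr10:131982041-131982067, minus strand, 133 bases before the start: gcacgcgccgcACGTGccacacgcacc
HK2, chr2:74835011-74835037, plus strand, 148 bases before the second annotated start: ccggcgagagcACGTGgagagaatcgt
PGK1, chrX:78104035-78104061, plus strand, 202 bases before the start: cggcgtgccggACGTGacaaacggaag
LDHB, chr12:21657800-21657826, minus strand, 28 bases after the start: cggaggagacgCACGCagctgactttg
A match to 5 letters is a description of the window and does not show that HIF binds there in H146 cells.

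Of the 41 genes, 37 passed the filter on low counts and were tested. At the threshold of 0.05 on edgeR's adjusted p, *LDHA* rose with siKIFC1, no gene of the 37 fell, and 36 were not called. Over all 14777 genes tested, 0.697% were called (0.325% higher and 0.372% lower). At an unadjusted p under 0.05, 3 of the 37 were higher (*LDHA*, *BNIP3* and *ALDOC*) and 1 was lower (*HK2*), where 4.72% and 4.55% of all genes were. With the replicate number as a block, *BNIP3* was also called higher and *HK2* lower, giving 2 higher and 1 lower, and the background was 5.83% of all genes (2.75% higher and 3.07% lower). The median log2 fold change of the 37 genes was 0.03 (quartiles -0.10 and 0.11), beside 0.01 over all genes tested (quartiles -0.12 and 0.13).

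**Figure D1:**
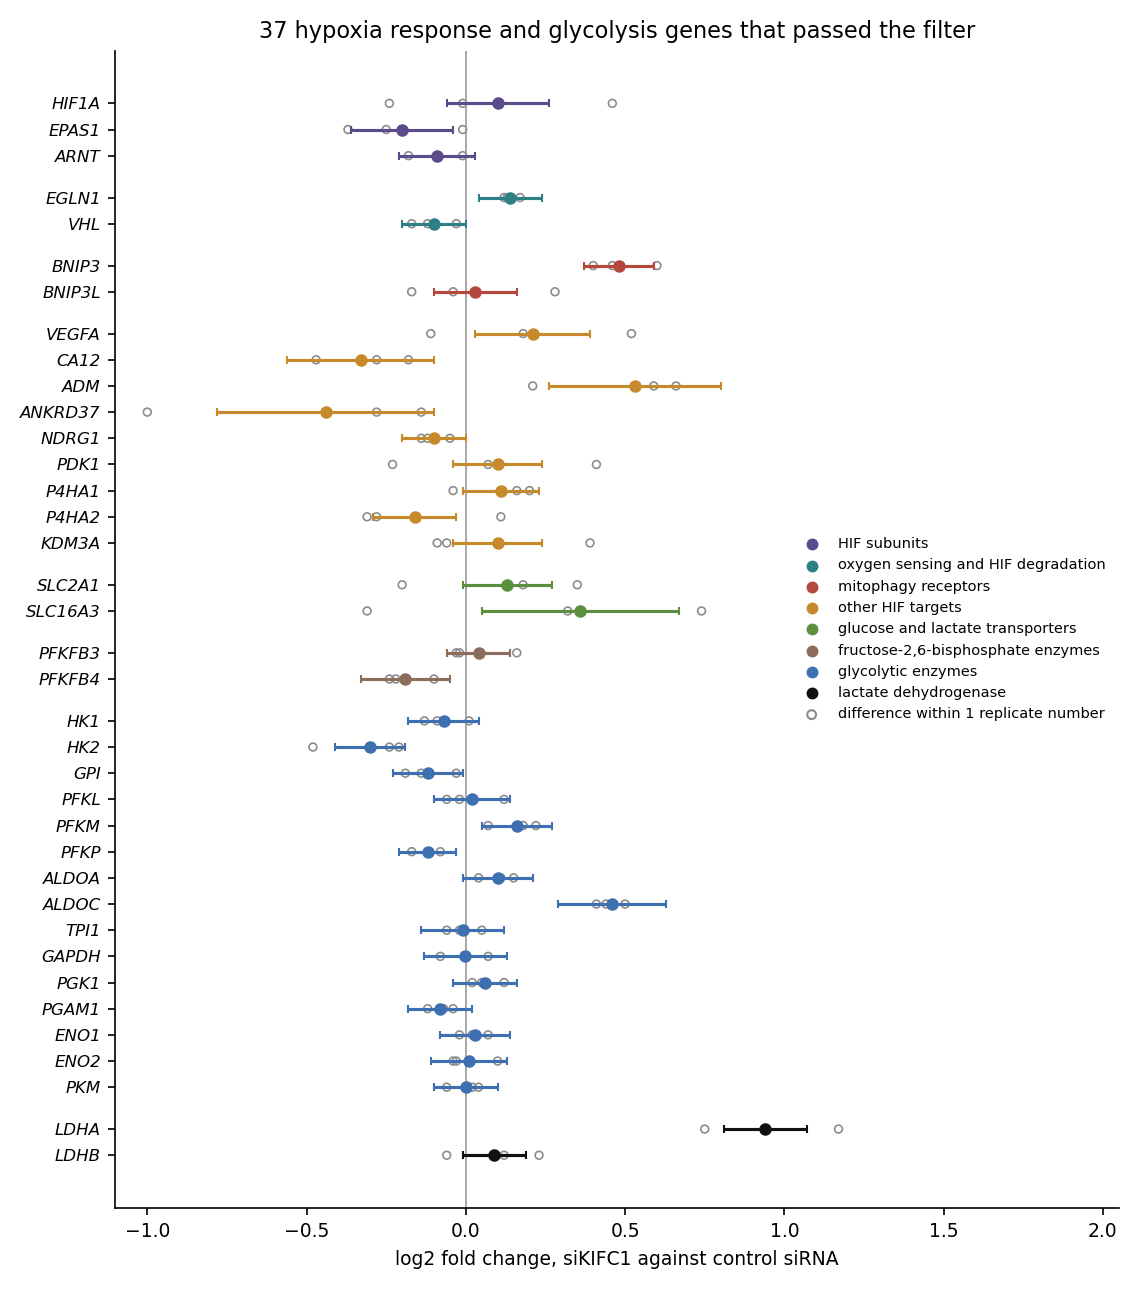
Log2 fold change of each of the 37 tested genes, siKIFC1 against control siRNA, with its standard error, grouped and colored by role; open circles are the differences within replicate numbers 1, 2 and 3. *LDHA* stands at 0.94, and the other 36 genes lie between -0.44 and 0.53.

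*LDHA* (gene ID 3939) encodes the A subunit of lactate dehydrogenase, which converts pyruvate to lactate and is a classical HIF1 target. It lies on chromosome 11 from 18394563 to 18408425 (GRCh38). Its counts were 6455, 5078 and 4987 in the controls and 10204, 9247 and 9974 after knockdown, or 387, 318 and 272 CPM against 652, 609 and 611 CPM. Every siKIFC1 library lay above every control library, and the control libraries were spread more widely. The mean went from 326 ± 58.3 CPM to 624 ± 24.1 CPM (SD, n = 3). The log2 fold change was 0.94 (SE 0.13), which is 1.92-fold, with an adjusted p of 0.00703 in edgeR. Within replicate numbers 1, 2 and 3 the difference was 0.75, 0.94 and 1.17 on the log2 scale, so the rise was present in each of the 3. In RNA from whole cultures, a rise in every cell and a larger rise in some of them cannot be told apart. Among the 48 genes called higher, *LDHA* had the 12th largest log2 fold change and the 3rd highest level in CPM.

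The call did not depend on how the counts were processed. *LDHA* passed 0.05 in all 17 alternatives, with log2 fold changes from 0.82 to 1.08 and adjusted p-values from 3.10e-20 to 0.0402. The lowest log2 fold change, 0.82, came without control siRNA replicate 3, the library with the lowest *LDHA*, and the highest, 1.08, without control siRNA replicate 1, the control library with the highest.

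**Figure D2:**
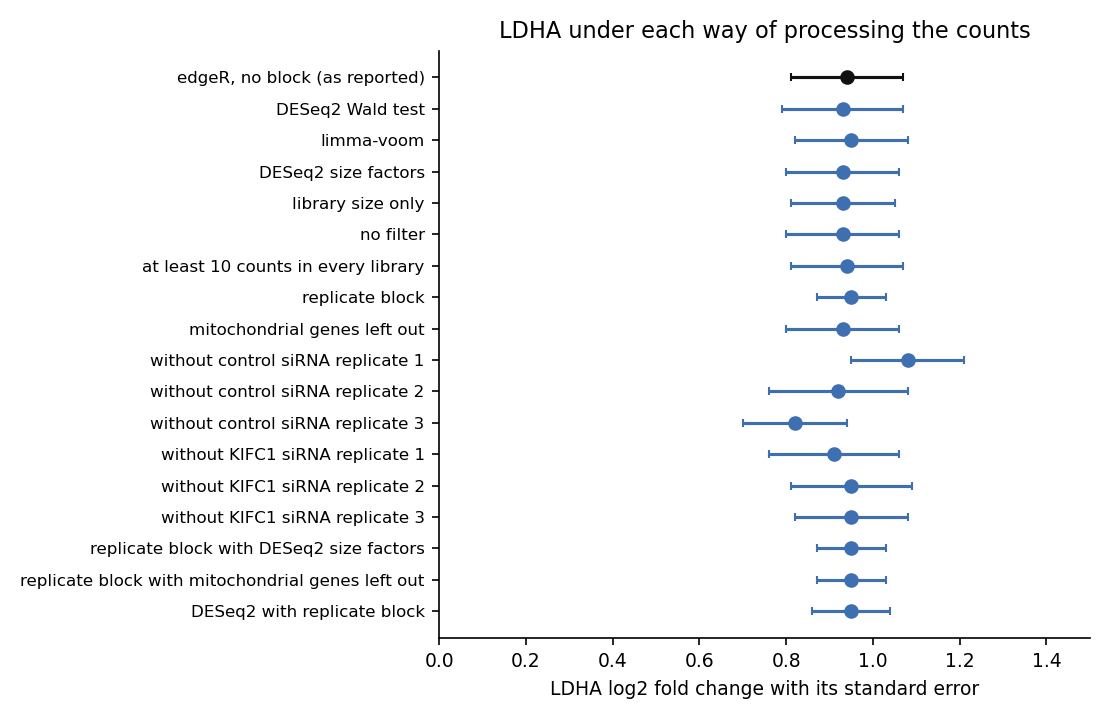
Log2 fold change of *LDHA* with its standard error as reported (black) and under each of 17 alternatives (blue), on an axis that starts at 0. The values run from 0.82 to 1.08.

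*LDHB* encodes the other common subunit of the tetramer, which favors the conversion of lactate back to pyruvate. Its level was 335, 395 and 327 CPM with control siRNA and 363, 378 and 385 CPM with siKIFC1, and the groups overlapped. Its log2 fold change was 0.09 (SE 0.10), with an adjusted p of 0.888 in edgeR. The ratio of *LDHA* to *LDHB* counts was therefore 1.16, 0.804 and 0.830 in the control libraries and 1.79, 1.61 and 1.59 in the siKIFC1 libraries, without overlap. This log2 ratio differed by 0.86 (two-sided exact permutation test, p = 0.1, the smallest that 3 libraries against 3 can give). Per length of the canonical transcript, *LDHA* made up 34.9% ± 4.64 of the sum of both transcripts with control siRNA and 49.1% ± 1.67 with siKIFC1 (SD, n = 3). With the length of all annotated exons these shares were 31.3% ± 4.41 and 45.1% ± 1.65. The third gene of the family, *LDHC*, which is best known from testis, had 45 to 55 counts per library.

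**Figure D3:**
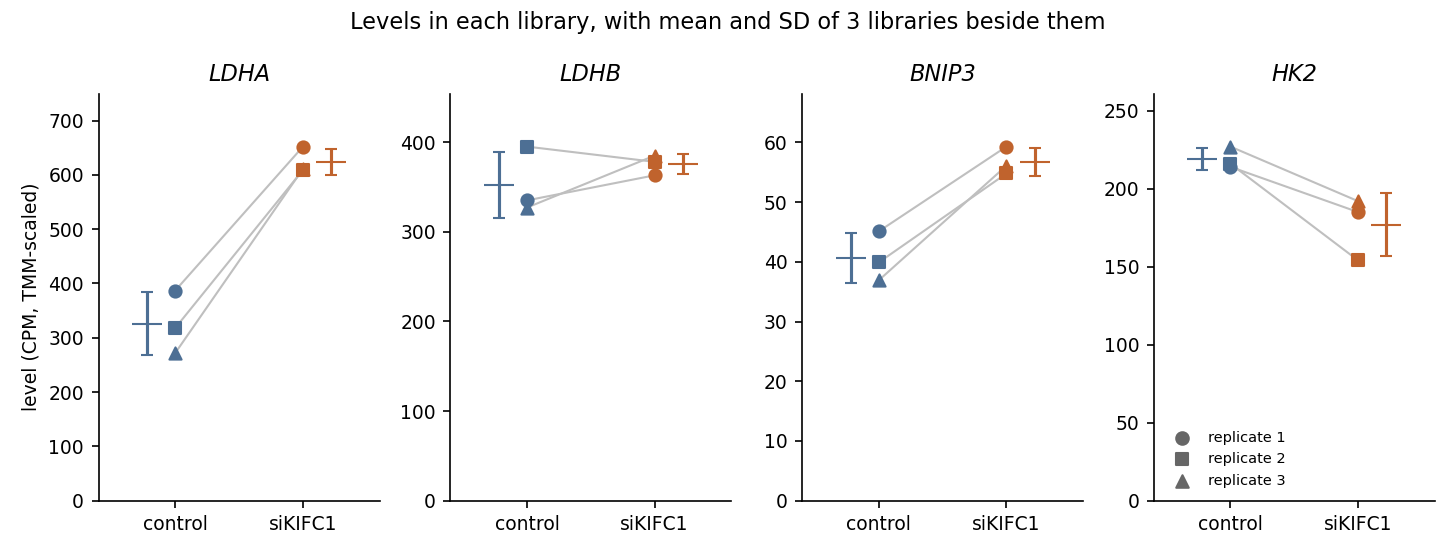
Levels of *LDHA*, *LDHB*, *BNIP3* and *HK2* in CPM in each library, with lines joining libraries of the same replicate number and bars giving the mean and SD of 3 libraries; each axis starts at 0. The siKIFC1 libraries of *LDHA* and *BNIP3* lie above all control libraries, those of *HK2* lie below, and those of *LDHB* overlap with the controls.

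The HIF subunits were not called. *HIF1A*, the alpha subunit of HIF1, had 103, 102 and 104 CPM in the control libraries and 102, 85.8 and 143 CPM in the siKIFC1 libraries. The control libraries were close to one another, and siKIFC1 replicate 3 was the highest and siKIFC1 replicate 2 the lowest of the 6. The log2 fold change was 0.10 (SE 0.16; adjusted p = 0.917 in edgeR), and it was -0.13 without siKIFC1 replicate 3. *EPAS1*, the alpha subunit of HIF2, had 16.4, 19.2 and 19.7 CPM with control siRNA and 13.9, 14.8 and 19.6 CPM with siKIFC1. Here siKIFC1 replicate 3 lay among the controls, and the log2 fold change was -0.20 (SE 0.16; adjusted p = 0.803 in edgeR). *ARNT*, the beta subunit, had 37.7, 33.6 and 37.9 CPM with control siRNA and 35.4, 29.6 and 37.7 CPM with siKIFC1, with a log2 fold change of -0.09 (SE 0.12; adjusted p = 0.909 in edgeR). These are mRNA levels, while HIF is regulated mainly as protein, which was not measured in these libraries.

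Among the genes that sense oxygen and degrade HIF, *EGLN1*, the main prolyl hydroxylase, had 60, 56.8 and 60.2 CPM with control siRNA and 65.8, 61.8 and 67.7 CPM with siKIFC1. The groups did not overlap, but the difference was small, with a log2 fold change of 0.14 (SE 0.10) and an adjusted p of 0.777 in edgeR. *VHL*, the substrate-recognition subunit of the ubiquitin ligase, went from 81.5 ± 1.6 to 75.9 ± 5.23 CPM (SD, n = 3; log2 fold change -0.10, SE 0.10). The other hydroxylases were near or at 0. *EGLN3*, itself a strong HIF target, had no count with control siRNA, and the siKIFC1 libraries held 1, 1 and 0. *EGLN2* had 2, 5 and 0 counts in each group, and because its interval lies within that of a readthrough gene, *RAB4B-EGLN2*, its count is uncertain.

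The mitophagy receptor *BNIP3*, a direct HIF1 target that tethers mitochondria to the autophagy machinery, had the smallest p after *LDHA*. It had 45.1, 39.9 and 36.9 CPM with control siRNA and 59.3, 54.8 and 56.1 CPM with siKIFC1. All siKIFC1 libraries lay above all control libraries. The mean went from 40.6 ± 4.13 to 56.7 ± 2.33 CPM (SD, n = 3), with a log2 fold change of 0.48 (SE 0.11) and differences of 0.40, 0.46 and 0.60 within the replicate numbers. The adjusted p was 0.0926 in edgeR and 0.00145 with the replicate block, and 7 of 17 alternatives called it (adjusted p from 0.00121 to 0.493). *BNIP3* (chromosome 10, 131967684 to 131981923) overlaps the interval of *PPP2R2D*, whose log2 fold change was -0.11 (adjusted p = 0.866 in edgeR). Its relative *BNIP3L*, which has the same role, had 61.4, 57.4 and 57.1 CPM with control siRNA and 59.5, 50.8 and 69.4 CPM with siKIFC1. These groups overlapped, and the log2 fold change was 0.03 (SE 0.13). The log2 ratio of *BNIP3* to *BNIP3L* counts differed by 0.47 between the groups (two-sided exact permutation test, p = 0.1, the smallest possible).

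None of the 9 other tested HIF targets was called, and their log2 fold changes ran from -0.44 to 0.53. *ADM*, the vasodilator peptide adrenomedullin, had 2.88, 4.38 and 3.27 CPM with control siRNA and 4.41, 6.98 and 3.80 CPM with siKIFC1. It was higher within each replicate number, but siKIFC1 replicate 3 lay below control replicate 2, and its log2 fold change of 0.53 had an SE of 0.27 (adjusted p = 0.605 in edgeR). It was 0.22 without siKIFC1 replicate 2. *ANKRD37*, a small ankyrin-repeat gene often used in hypoxia signatures, had 1.56, 1.44 and 1.96 CPM with control siRNA and 1.40, 0.659 and 1.59 CPM with siKIFC1. It was lower within each replicate number, with a log2 fold change of -0.44 (SE 0.34; adjusted p = 0.800 in edgeR) and an estimate that rested on 10 to 36 counts per library. Without 1 library this estimate ran from -0.68 (siKIFC1 replicate 3 left out) to -0.15 (siKIFC1 replicate 2 left out). *VEGFA*, the main angiogenic ligand, had 12.1, 14.2 and 16.6 CPM with control siRNA and 13.8, 20.4 and 15.4 CPM with siKIFC1. The groups overlapped, and the log2 fold change of 0.21 (SE 0.18) was 0.02 without siKIFC1 replicate 2.

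The carbonic anhydrases control pH at the cell surface. *CA12* went from 4.59 ± 1.05 to 3.64 ± 0.525 CPM (SD, n = 3), with a log2 fold change of -0.33 (SE 0.23). *CA9*, one of the most strongly hypoxia-induced genes known, was counted 0, 0 and 1 times in the controls and 1, 2 and 0 times after knockdown. At this depth *CA9* was thus at or under the floor of 3 counts in every library of both groups.

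The remaining targets act in several pathways. The log2 fold change was -0.10 (SE 0.10) for *NDRG1*, a stress-response gene, and 0.10 (SE 0.14) for *PDK1*, a kinase that inhibits pyruvate dehydrogenase. The collagen prolyl hydroxylases *P4HA1* and *P4HA2* had log2 fold changes of 0.11 (SE 0.12) and -0.16 (SE 0.13). The histone demethylase *KDM3A* had 81.7, 82.0 and 83.4 CPM with control siRNA and 78.7, 76.9 and 109 CPM with siKIFC1. As with *HIF1A*, its positive log2 fold change (0.10, SE 0.14) came from siKIFC1 replicate 3 and was -0.08 without that library. The same held for *PDK1* (59.0 CPM in that library, 47.4 and 41.2 CPM in the other siKIFC1 libraries), with -0.05 without it, and for *BNIP3L*, with -0.09.

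A further 51 genes of the HIF pathway and its targets were listed, 49 were matched to a symbol in the table, and 41 were tested. None was called in edgeR. At an unadjusted p under 0.05, 1 was higher and 5 were lower, where 4.72% and 4.55% of all genes were. With the replicate block, 2 of the 41 were lower, where 3.07% of all genes were. *AK4*, a mitochondrial adenylate kinase, had 69.6, 66.7 and 65.9 CPM with control siRNA and 49.2, 43.6 and 55.9 CPM with siKIFC1, without overlap, with a log2 fold change of -0.44 (SE 0.12; adjusted p = 0.143 in edgeR and 0.00394 with the block). *TFRC*, the transferrin receptor, had 386, 336 and 421 CPM with control siRNA and 303, 260 and 344 CPM with siKIFC1. Its groups overlapped, while it was lower within each replicate number, and its log2 fold change was -0.33 (SE 0.13; adjusted p = 0.390 in edgeR and 0.00410 with the block). The median log2 fold change of the 41 genes was 0.01.

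Glucose enters through SLC2A transporters, and lactate crosses the membrane through transporters such as SLC16A3 and SLC16A1. *SLC2A1* (GLUT1) was at 60.8 ± 0.732 CPM with control siRNA and 66.5 ± 12.5 CPM with siKIFC1 (SD, n = 3). Its siKIFC1 libraries, at 68.1, 78.1 and 53.3 CPM, lay on both sides of the controls, and the log2 fold change was 0.13 (SE 0.14). *SLC2A3* (GLUT3) had at most 4 counts in any library. *SLC16A3*, the lactate exporter MCT4, had 2.88, 3.69 and 3.65 CPM with control siRNA and 2.30, 6.26 and 4.59 CPM with siKIFC1. It was lowest in siKIFC1 replicate 1 and highest in siKIFC1 replicate 2, with a log2 fold change of 0.36 (SE 0.31; adjusted p = 0.820 in edgeR) that was 0.01 without siKIFC1 replicate 2 and 0.67 without siKIFC1 replicate 1. *SLC16A1*, the lactate transporter MCT1, belongs to the further list of glycolysis genes and was named after its values were seen. It had 173, 158 and 177 CPM with control siRNA and 184, 193 and 202 CPM with siKIFC1. The groups did not overlap, and the log2 fold change was 0.19 (SE 0.10; adjusted p = 0.633 in edgeR).

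Of the 15 enzymes from hexokinase to pyruvate kinase, none was called without the block and 1, *HK2*, with it. *HK2*, the hexokinase that HIF induces, had 214, 216 and 227 CPM with control siRNA and 185, 154 and 192 CPM with siKIFC1. Every siKIFC1 library lay below every control library, and siKIFC1 replicate 2 was the lowest. The mean went from 219 ± 6.81 to 177 ± 20.2 CPM (SD, n = 3). The log2 fold change was -0.30 (SE 0.11), with an adjusted p of 0.353 in edgeR and 0.0199 with the replicate block. All 4 of the 17 alternatives that called *HK2* held the block, and the adjusted p ranged from 0.0178 to 0.899. The direction of this difference was opposite to that of *LDHA* and *BNIP3*. *HK1*, the housekeeping hexokinase, had 93.1, 101 and 104 CPM with control siRNA and 87.7, 92.6 and 104 CPM with siKIFC1 (log2 fold change -0.07, SE 0.11). Per length of the canonical transcript, *HK2* made up 58.5% ± 0.944 of the 2 hexokinases with control siRNA and 54.4% ± 2.91 with siKIFC1 (SD, n = 3). With the length of all annotated exons these shares were 71.9% ± 0.784 and 68.4% ± 2.53, so the level of the share depends on the length.

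*ALDOC*, the brain-type aldolase, had 5.10, 5.57 and 5.77 CPM with control siRNA and 6.96, 7.44 and 8.21 CPM with siKIFC1. The groups did not overlap, and the log2 fold change was 0.46 (SE 0.17), but the adjusted p was 0.397 in edgeR and 0.115 with the block. Per length of the canonical transcript, *ALDOC* made up 0.647% ± 0.096 and 0.830% ± 0.148 of both aldolases (SD, n = 3). The rest was *ALDOA*, with a log2 fold change of 0.10 (SE 0.11). Among the phosphofructokinases, which catalyze the committed step, *PFKP* had 306, 320 and 312 CPM with control siRNA and 289, 295 and 277 CPM with siKIFC1. These groups did not overlap either, with a log2 fold change of -0.12 (SE 0.09; adjusted p = 0.791 in edgeR). *PFKM* had 0.16 (SE 0.11) and *PFKL* 0.02 (SE 0.12) as log2 fold changes. *PFKFB3* and *PFKFB4*, which make the activator of phosphofructokinase, had 0.04 (SE 0.10) and -0.19 (SE 0.14).

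From triose phosphate onward the group means differed little before lactate dehydrogenase. *GAPDH*, which oxidizes glyceraldehyde 3-phosphate and served as reference gene in the study's RT-qPCR, had 4510, 4520 and 3730 CPM with control siRNA and 4740, 4280 and 3740 CPM with siKIFC1. Its log2 fold change was -0.002 (SE 0.13), and the low library in each group was replicate 3. The ratio of *LDHA* to *GAPDH* counts differed by 0.95 on the log2 scale, close to the fold change of *LDHA* itself. The log2 fold changes were 0.06 (SE 0.10) for *PGK1*, -0.08 (SE 0.10) for *PGAM1*, 0.03 (SE 0.11) for *ENO1*, 0.01 (SE 0.12) for the neuronal enolase *ENO2*, and 0.001 (SE 0.10) for *PKM*. *GPI*, the isomerase that follows hexokinase, had -0.12 (SE 0.11). Several of these enzymes have processed pseudogenes, and how reads that align to several places were counted is not given in the sources used here.

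**Figure D4:**
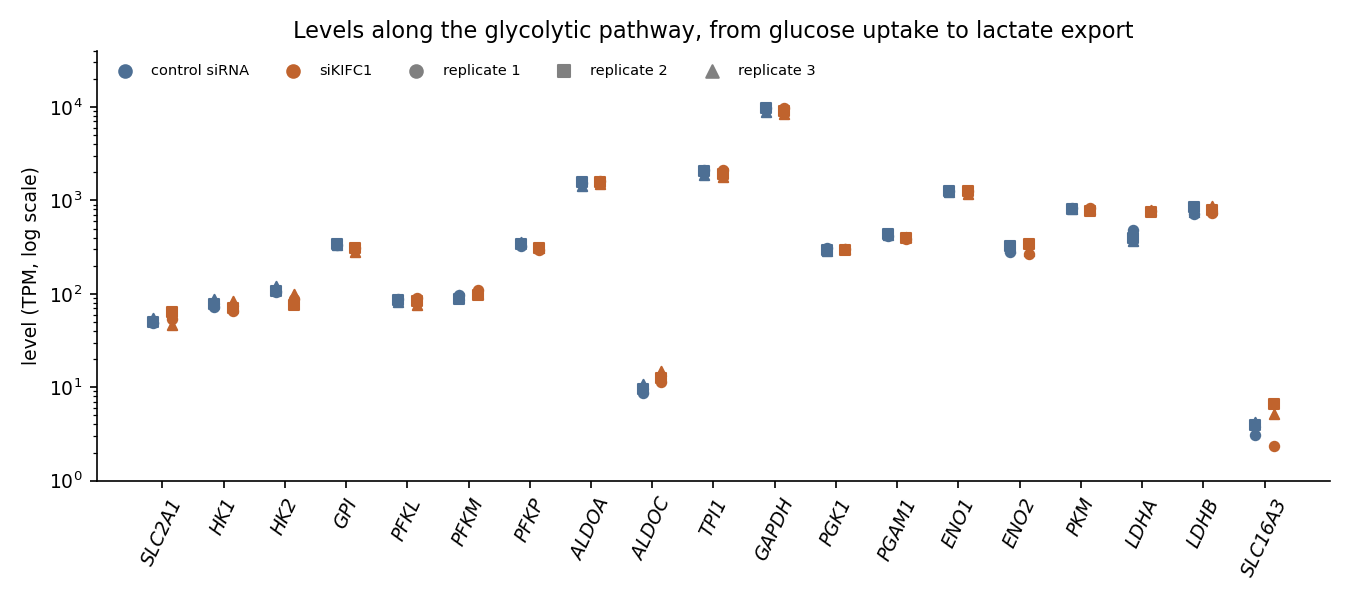
Level (TPM, counts scaled by the length of the canonical transcript and by library, log axis) of the tested genes that take up glucose, form the glycolytic pathway and export lactate, in the 3 control and 3 siKIFC1 libraries. Only *LDHA*, from a mean of 413 to 771, was called among these genes in edgeR without the block.

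Levels can be compared between genes only per length. In TPM with control siRNA, *GAPDH* was the most abundant of the 41 genes (9420), followed by *TPI1* (2010), *ALDOA* (1500) and *ENO1* (1240). *PKM* stood at 823, *LDHB* at 771 and *LDHA* at 413 TPM. With siKIFC1, *LDHA* stood at 771 ± 23.8 TPM, beside 800 ± 60.1 for *LDHB* and 800 ± 27.0 for *PKM* (SD, n = 3). With this canonical length, *LDHA* was the lower of *LDHA* and *PKM* in each siKIFC1 library, while the ranges of *LDHA* and *LDHB* overlapped. The order of these genes depends on the length used. All annotated exons measure 6026 bases for *LDHA*, 8572 for *PKM* and 2983 for *LDHB*. Per that length, *LDHA* was higher than *PKM* in each siKIFC1 library, and *LDHB* was higher than *PKM* in every library of both groups.

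A further 43 genes of glycolysis, pyruvate metabolism and the pentose phosphate pathway were listed and matched, and 36 were tested. None was called in edgeR, and at an unadjusted p under 0.05, 2 were higher and 1 was lower, where 4.72% and 4.55% of all genes were. With the replicate block, 2 of the 36 were higher and 1 was lower, where 2.75% and 3.07% of all genes were, so these counts are near the background. *PDK4*, a kinase that inhibits pyruvate dehydrogenase, had 6.66, 7.95 and 6.92 CPM with control siRNA and 8.75, 9.55 and 15.3 CPM with siKIFC1 (log2 fold change 0.64, SE 0.22; adjusted p = 0.313 in edgeR and 0.0225 with the block). Its log2 fold change was 0.35 without siKIFC1 replicate 3. *PCK2*, the mitochondrial enzyme that makes phosphoenolpyruvate, had 38.0, 43.4 and 40.1 CPM and then 48.9, 60.3 and 46.4 CPM (0.36, SE 0.13; adjusted p = 0.345 and 0.0279). *PC*, which carboxylates pyruvate to oxaloacetate, had 36.5, 36.2 and 34.5 CPM and then 30.5, 28.8 and 23.9 CPM (-0.37, SE 0.12; adjusted p = 0.310 and 0.0255). The groups did not overlap for any of these 3 genes.

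By SD and by mean square, the spread between cultures was at least as large as the difference between the groups for a small majority of the genes. The median size of the group difference over the 37 tested genes was 0.10 on the log2 CPM scale. The median SD within a group was 0.14, and the median range of the means of the 3 replicate numbers was 0.22. A range of 3 means tends to be larger than a difference between group means where nothing differs. The mean squares given below are the more even comparison. Over all genes tested these medians were 0.12, 0.18 and 0.28. The group difference exceeded the SD within groups for 17 of the 37 (45.9%, against 34.2% of all genes). The mean square of knockdown exceeded that of the replicate number for 17 of the 37 genes, and for 39.2% of all genes.

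**Figure D5:**
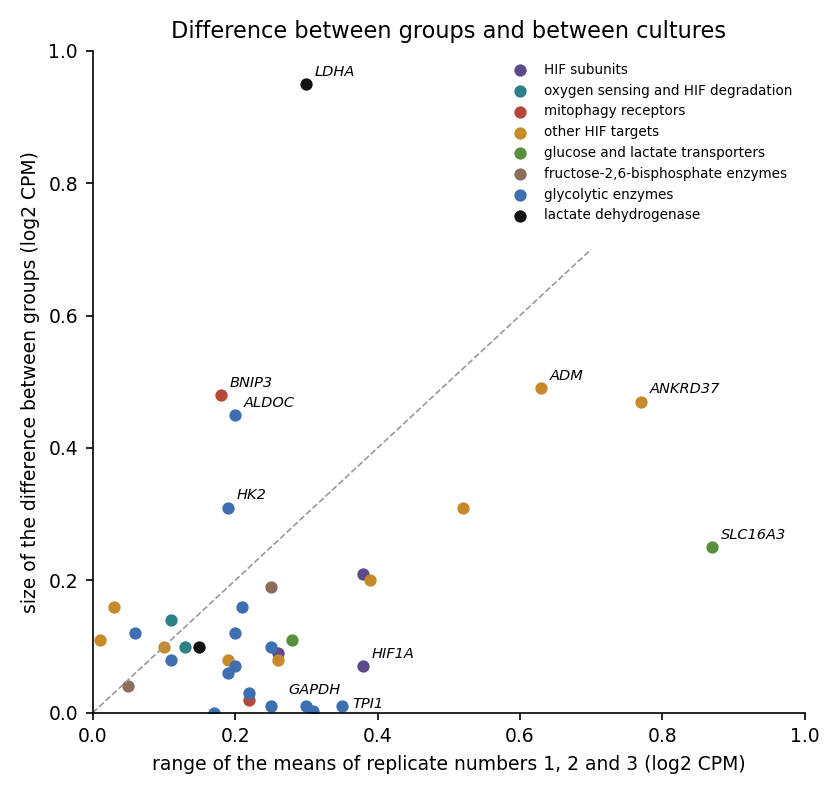
Size of the difference between the groups against the range of the means of replicate numbers 1, 2 and 3, both in log2 CPM, for the 37 tested genes colored by role; the dashed line marks equal values. *LDHA*, *BNIP3*, *ALDOC* and *HK2* lie well above the line, while *SLC16A3*, *ANKRD37*, *HIF1A*, *TPI1* and *GAPDH* lie below it. A range of 3 means tends to be larger than a difference between group means where nothing differs.

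Within replicate numbers, 8 of the 37 genes were higher with siKIFC1 in all 3 (*EGLN1*, *BNIP3*, *ADM*, *PFKM*, *ALDOA*, *ALDOC*, *PGK1* and *LDHA*), and 19.5% of all genes were. Another 11 were lower in all 3 (*EPAS1*, *ARNT*, *VHL*, *CA12*, *ANKRD37*, *NDRG1*, *PFKFB4*, *HK2*, *GPI*, *PFKP* and *PGAM1*), and 19.4% of all genes were (38.9% in either direction). The groups did not overlap for 4 genes that were higher (*EGLN1*, *BNIP3*, *ALDOC* and *LDHA*; 7.99% of all genes) and 2 that were lower (*HK2* and *PFKP*; 7.52% of all genes), where 15.5% of all genes did not overlap in either direction.

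A test for the replicate number itself, in a fit with terms for replicate number and group, called 1 of the 37 genes (2.70%), against 10.1% of all genes. This was *TPI1*, triose phosphate isomerase, with 1040, 988 and 832 CPM with control siRNA and 1070, 948 and 821 CPM with siKIFC1 (adjusted p = 0.0245 in edgeR). Replicate 1 was the highest and replicate 3 the lowest in both groups, and the log2 fold change for knockdown was -0.01 (SE 0.13). *GAPDH* followed with an adjusted p of 0.0632 in edgeR. The levels of the glycolytic enzymes were lower together in replicate 3: 10, 13 and 3 of the 15 enzymes lay above their group's mean in control replicates 1, 2 and 3, and 12, 9 and 3 in siKIFC1 replicates 1, 2 and 3. Their median deviation from the group mean was -0.08 in control replicate 3 and -0.11 in siKIFC1 replicate 3 on the log2 scale. The median over all genes was near 0, but the scaling of the libraries holds it there. Since 10.1% of all genes were called for the replicate number, such differences were not limited to these enzymes. Whether the fall in replicate 3 was particular to them was not tested. *LDHA* was also highest in replicate 1 of both groups, and it was lowest in replicate 3 with control siRNA but about equal in replicates 2 and 3 with siKIFC1.

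Finally, the annotated 3′ UTRs were searched for GCAACC and GAGATCT, on the strand of the mRNA. An earlier scan of these same libraries had found that these words differ between genes that rose and genes that fell, so the counts are a description and no independent evidence. GCAACC was present in 44 of the 47 higher genes with a 3′ UTR (93.6%) and in 23.2% of the 12972 tested genes with one, and GAGATCT in 42 of the 53 lower genes (79.2%) and in 8.97% of all. Of the 37 tested hypoxia and glycolysis genes, 11 held GCAACC (29.7%) and 5 held GAGATCT (13.5%). *LDHA* held 2 copies of GCAACC and 1 of GAGATCT, *BNIP3* 1 copy of GCAACC, and *HK2* 1 copy of GAGATCT. The sites come from GENCODE 44 canonical transcripts (GRCh38), with the word in capitals and its first base counted from the start of the 3′ UTR.
LDHA, position 509 of 1144: atacaaacaatGCAACCaactatccaag
LDHA, position 654 of 1144: gctattcttggGCAACCctgcaacgatt
LDHA, position 885 of 1144: cacagatttttGAGATCTtgtcctctgga
BNIP3, position 334 of 840: aaaaattatctGCAACCttaattcagct
HK2, position 425 of 2418: ttctcctgtcaGAGATCTgggaggtctcc
The median log2 fold change was 0.06 for the 11 genes with GCAACC and 0.02 for the 26 without, and -0.12 for the 5 with GAGATCT and 0.03 for the 32 without. *AK4* held 1 copy of GCAACC while its level was lower, and *TFRC* and *PC* held 1 copy of GAGATCT each. *PDK4*, *PCK2* and *ALDOC*, whose levels were higher, held neither word. The part of these words in the differences was not tested.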

How the data were processed

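Total RNA of 6 H146 cultures (individual wells) was sequenced. The authors aligned reads to GRCh38 with HISAT2 2.2.1, counted them with featureCounts 2.0.8 and deposited whole counts for 28395 NCBI gene IDs, without normalization. The annotation, strand setting and treatment of multiply aligned reads are not given in the sources used here. Symbols came from RefSeq for 27743 rows. The other 652 held 0.0747% of the counts.

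Groups were taken from the labels. The main test was edgeR's robust quasi-likelihood test (version 4.0.16, R 4.3.3) after TMM scaling. Genes were filtered with filterByExpr, *KIFC1* was kept, and p-values were adjusted after Benjamini and Hochberg across 14777 genes (threshold 0.05). CPM are TMM-scaled. Log2 CPM carry a prior count of 2 and serve only for spreads and for differences within replicate numbers. SE is the log2 fold change over the square root of F. The biological coefficient of variation was 13.1%, and 8.63% with the replicate block. The p-values set the group difference against the spread between these cultures. With the block, that spread is the part left after the replicate number is fitted. Floors cover counting error only.

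Both groups carry replicate numbers 1 to 3. After removal of group means, libraries of the same number correlated at 0.484, 0.414 and 0.491 over 11758 genes. Those of different numbers correlated at -0.457 to 0.0234. Part of this contrast is built in. With means of only 3 libraries removed, positive values for the same number push those for different numbers down. The numbers were taken to pair the cultures because the values for the same number were positive. The study's methods name no block, so the block was an alternative.

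The genes, the further lists and the tests were chosen with earlier results of these data known. Values per library were to be given for the HIF subunits, for genes called in either fit or for the replicate number, and for the 5 largest absolute log2 fold changes. Other values per library were chosen after they were seen. Genes of the further lists were named where called, and *LDHC* and *SLC16A1* were named though not called. Two-sided exact permutation tests compared count ratios. Alternatives were DESeq2 1.42.0, limma-voom (limma 3.58.1), scaling by DESeq2 size factors or by library size alone, no filter, a minimum of 10 counts per library, mitochondrial genes left out, the replicate block, and each library left out. Chosen after seeing the data were the block with DESeq2 size factors, with mitochondrial genes left out, and in DESeq2. 3′ UTRs of at least 50 bases and transcript lengths came from GENCODE 44. Python 3.11.15 was used for tables and figures, with matplotlib 3.10.9, scipy 1.17.1, pandas 2.3.3 and numpy 2.4.6.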

Additional observations from a re-analysis of the deposited data

How the results depend on the processing

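Leaving out each library in turn gave 9 to 194 higher and 15 to 274 lower among all genes, 1 or 2 higher and 0 lower among the 37 hypoxia and glycolysis genes, and 0 to 2 lower among the other HIF genes. The low ends of the counts over all genes, 9 higher and 15 lower, came without control siRNA replicate 3, and the high ends, with 2 of the 37 genes and 2 of the other HIF genes, without siKIFC1 replicate 3. The counts over all genes were 125 higher and 145 lower with DESeq2, 121 and 144 with no filter, and 407 and 454 with the replicate block. They were 396 and 468 with the block and DESeq2 size factors, 411 and 470 with the block and mitochondrial genes left out, and 212 and 280 with DESeq2 and the block. Of the 37 genes, 2 were higher with DESeq2, no filter or any block, and 1 was lower with any block. Of the other HIF genes, 1 was lower with DESeq2 and 2 with any block. Of the other glycolysis genes, 2 were higher and 1 was lower with each edgeR fit that held the block. The replicate number called 2 of the 37 with limma-voom or with mitochondrial genes left out. Beyond *KIFC1*, *BNIP3*, *HK2* and the 5 genes of the further lists named above, the replicate block changed no call among the genes named. Signs turned only for genes with a log2 fold change of at most 0.13 in size. Without 1 library, log2 fold changes ran from -0.16 to 0.002 for *ARNT*, -0.09 to 0.13 for *BNIP3L*, -0.03 to 0.10 for *ENO1*, -0.10 to 0.08 for *ENO2*, -0.09 to 0.08 for *GAPDH*, -0.13 to 0.25 for *HIF1A*, -0.08 to 0.18 for *KDM3A*, -0.05 to 0.21 for *PDK1*, -0.002 to 0.07 for *PFKFB3*, -0.08 to 0.11 for *PFKL*, -0.06 to 0.04 for *PKM*, -0.01 to 0.26 for *SLC2A1* and -0.11 to 0.08 for *TPI1*. *PKM* was also at -0.003 with DESeq2, -0.004 with DESeq2 size factors (with or without the block) or DESeq2 and the block, -0.01 with library size only or no filter, and -0.002 with mitochondrial genes left out, with or without the block. The causes were not tested. The median log2 fold change of all genes stayed between -0.003 and 0.01 under every alternative. *EGLN2*, *EGLN3*, *CA9* and *SLC2A3* had at most 5 counts in any library and were not tested.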
